A study of Mus musculus with 2 samples.

Results

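The genes described here encode 10 enzymes that modify collagen on prolyl and lysyl residues: the alpha subunits of collagen prolyl 4-hydroxylase (P4ha1, P4ha2 and P4ha3), the lysyl hydroxylases (Plod1, Plod2 and Plod3) and 4 lysyl oxidases (Lox, Loxl1, Loxl2 and Loxl3). They were taken by symbol from the deposited gene table, and all 10 were found among its 54680 loci. RNA was sequenced from CT26 cells, an established mouse colon cancer line, in 2 groups of 1 library each. Cells of the knockdown library (shSetdb1) had received a lentiviral short hairpin RNA against Setdb1, a histone H3 lysine methyltransferase, and cells of the control library (shCtrl), labelled wild type, had received a lentivirus with the empty knockdown vector. Both cultures were grown in RPMI with serum for 6 days, and the labels call the knockdown cells differentiated. Because each group had 1 library, no difference below was tested, and each one describes this pair of libraries and not the conditions.

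Collagen chains are modified in the endoplasmic reticulum before they fold. Prolyl 4-hydroxylase, a tetramer of alpha subunits and the protein disulfide isomerase P4hb, hydroxylates prolines and so makes the triple helix stable at body temperature. The Plod enzymes hydroxylate lysines, which can then carry sugars or enter crosslinks. Both groups of hydroxylases use oxygen, iron, 2-oxoglutarate and ascorbate. Lysyl oxidases are secreted copper enzymes that oxidise lysines and hydroxylysines outside the cell, the step that starts covalent crosslinking of collagen and elastin. P4ha1, P4ha2, Plod2 and Lox are known targets of the hypoxia-inducible factors (HIF), which bind ACGTG or GCGTG cores in DNA.

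Setdb1 itself, the check of the labels, was at 10.4 FPKM in control cells and 2.47 FPKM in knockdown cells, 23.7% of the control level. It shares 75 exon bases (1.09% of its own) with Cers2 on the opposite strand, which had 12233 reads in control cells and 8639 in knockdown cells. The part of reads from Cers2 in the Setdb1 value was not tested. FPKM is a fragment count per length of gene model and per depth, here the same depth of 18731117 reads for both libraries. The libraries held 18421604 (control) and 19045830 (knockdown) reads. FPKM ratios are therefore not corrected for this difference in totals, while ratios of reads as a share of each library are. Of 13 colon epithelial markers 3 reached 1 FPKM, all of them keratins (Krt18, Krt19 and Krt20), and the defining epithelial genes Epcam and Cdh1 were listed at 0 in both libraries. Krt19, with 1 read in control cells and 53 in knockdown cells, reached 1 FPKM in knockdown cells only. Summed levels of that list were 43.9 FPKM in control cells and 129 FPKM in knockdown cells. Of 7 fibroblast markers 2 reached 1 FPKM (Pdgfra and Pdgfrb), with sums of 14.2 and 16.6 FPKM, and Lum, Thy1 and Fap were at 0. Pdgfra, at 0.501 FPKM in control cells and 1.77 FPKM in knockdown cells, reached 1 FPKM in knockdown cells only. Of 7 blood cell markers 1 reached it, Cd68, at 10.4 FPKM in control cells and 100.2 FPKM in knockdown cells. The sums of that list were 11.3 and 101 FPKM, while Ptprc, the pan-leukocyte gene, had 0 and 4 reads and Adgre1, Itgam and Cd3e had none. None of the 5 endothelial markers reached 1 FPKM, with 1 read in all in control cells and 0 in knockdown cells. The part of these differences in the results below was not tested.

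The sequences just before the start of P4ha1 and P4ha2, the members with the highest ratios, are shown first, with that of Plod1, whose ratio was smaller, beside them. Each is the 250 bases upstream of the RefSeq start (GRCm38.p6), 5′ to 3′ on the strand of the gene, with capitals for every ACGTG or GCGTG on either strand. P4ha1 lies at chr10:59323046-59323295 (plus strand), P4ha2 at chr11:54100674-54100923 (plus strand) and Plod1 at chr4:147936777-147937026 (minus strand). No exon of GENCODE M21 falls in these windows. The RefSeq start of P4ha2 is 829 bases inside the gene model of the deposited table.
P4ha1: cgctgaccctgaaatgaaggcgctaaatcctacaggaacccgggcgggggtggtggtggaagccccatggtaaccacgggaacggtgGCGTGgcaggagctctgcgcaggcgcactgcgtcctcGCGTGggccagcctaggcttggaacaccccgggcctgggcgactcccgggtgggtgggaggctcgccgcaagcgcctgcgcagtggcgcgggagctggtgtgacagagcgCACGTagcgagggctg
P4ha2: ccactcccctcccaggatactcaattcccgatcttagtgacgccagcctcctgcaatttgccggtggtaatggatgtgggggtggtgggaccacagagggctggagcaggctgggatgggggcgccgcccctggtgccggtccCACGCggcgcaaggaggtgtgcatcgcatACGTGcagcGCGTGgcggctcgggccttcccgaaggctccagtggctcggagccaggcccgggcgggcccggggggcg
Plod1: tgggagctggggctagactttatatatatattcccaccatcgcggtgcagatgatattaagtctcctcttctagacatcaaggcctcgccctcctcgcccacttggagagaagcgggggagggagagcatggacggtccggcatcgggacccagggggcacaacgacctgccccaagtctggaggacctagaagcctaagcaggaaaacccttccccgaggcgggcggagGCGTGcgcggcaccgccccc

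P4ha1 and P4ha2 each held 3 matches, 1 of ACGTG and 2 of GCGTG, while Plod1 held 1, a GCGTG that starts 20 bases before the gene. In P4ha1 the matches began 163, 126 and 16 bases before the start, and in P4ha2 they began 107, 78 and 69 bases before it. Of all 32851 promoter windows of the same length, 38.6% held at least 1 match of either motif, 16.6% held ACGTG and 6.58% held 3 or more matches. The number of matches did not follow the ratios among the 5 members with a window. Plod3, which had the lowest ratio of those with reads, held 4 matches, and P4ha3, with no reads, held 0. The Plod3 window also lies over exons of another gene, which fill 208 of its bases. A match describes the letters of a window and is not a binding site. Plod2, Lox, Loxl1, Loxl2 and Loxl3 were not analysed here for promoter sequence.

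In the knockdown library 3 of the enzymes, P4ha1, P4ha2 and Plod2, were more than 2-fold above the control library, and none was 2-fold below it. P4ha1, P4ha2, Plod1, Plod2, Plod3 and Loxl3 had at least 1 FPKM in both libraries, so none of these 6 passed the filter of 1 FPKM through a single library. The other 4 were below it in both. Ratios are log2 of (FPKM + 1), knockdown over control, and low genes look closer to 0 on this scale. They ran from 0.21 for Plod3 to 3.33 for P4ha2, with a median of 1.20 over the 6 that passed, against a median of -0.00039 over the 10671 genes with 1 FPKM in at least 1 library. Over the 10 members the median was 0.44. Of the 6, all 6 had a ratio above 0, where 49.6% of all genes did. A ratio of 1 or more, 2-fold or higher, was reached by 3 of the 6 and by 6.81% of all genes. A ratio of -1 or less was reached by 0 of the 6 and by 4.85% of all genes. In bulk RNA a change in the share of cells that express a gene and a change in RNA per cell cannot be told apart.

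**Figure D1:**
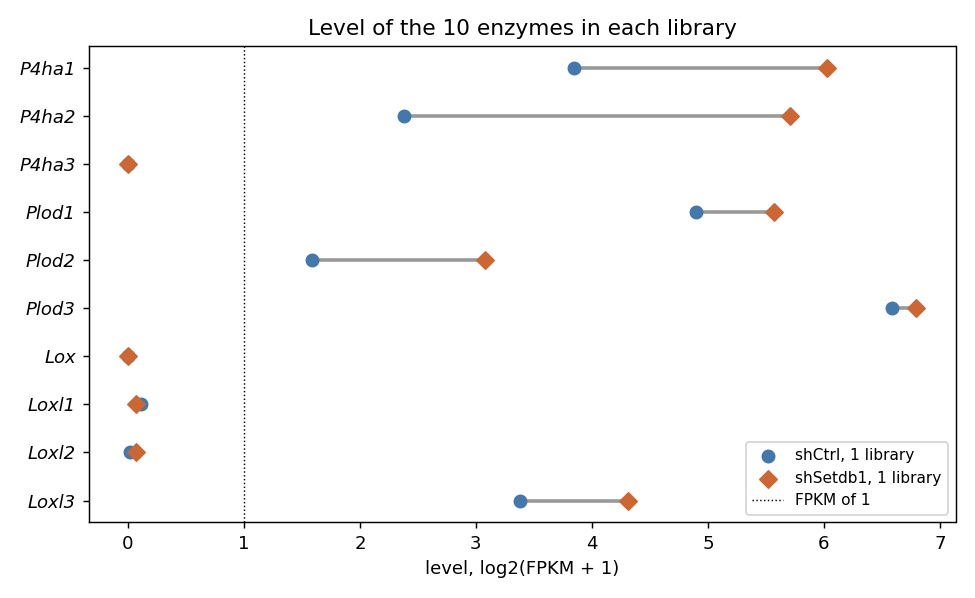
Level of each of the 10 enzymes, log2(FPKM + 1), in control cells (circles) and the knockdown library (diamonds), with 1 library per point and a dotted line at 1 FPKM. The widest gap is that of P4ha2, from 4.20 to 51.4 FPKM, and P4ha3, Lox, Loxl1 and Loxl2 lie near 0 in both libraries.

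Among the prolyl 4-hydroxylase alpha subunits, P4ha2 had the larger difference. P4ha2 (ENSMUSG00000018906, chromosome 11, 54100095 to 54131665) encodes the type II alpha subunit, which is prominent in cartilage and endothelium. It was at 4.20 FPKM (491 reads) in control cells and 51.4 FPKM (6008 reads) in knockdown cells. Its log2 ratio of 3.33 ranked 18 from the top of the 10671 genes. Reads, taken as a share of all reads of the library, stood in a ratio of 11.8, with a 95% exact binomial (Clopper-Pearson) interval of 10.8 to 13.0. These intervals hold counting error and nothing else, because without replicate libraries the spread between cultures could not be included. PCR copies of a molecule are read as separate reads, which can make the intervals too narrow even for counting error.

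P4ha1 (ENSMUSG00000019916, chromosome 10, 59323296 to 59373304) encodes the type I alpha subunit, the main form in most cells. It was at 13.3 FPKM (1028 reads) in control cells and 64.2 FPKM (4944 reads) in knockdown cells. The log2 ratio of 2.18 ranked 89 from the top, and the reads stood in a ratio of 4.65 (4.35 to 4.98). The counting intervals of the P4ha1 and P4ha2 read ratios did not overlap. P4ha3 (ENSMUSG00000051048, chromosome 7, 100285520 to 100319699), the third alpha subunit, had 0 reads in both libraries, which allows up to 3 reads, or 0.0511 FPKM, in each.

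The alpha subunits together were at 17.5 FPKM in control cells and 116 FPKM in knockdown cells, 6.59-fold apart. P4ha1 made up 76.0% of the sum in control cells and 55.5% in knockdown cells, and P4ha2 24.0% and 44.5%. The level of P4ha1 was 3.18 times that of P4ha2 in control cells and 1.25 times in knockdown cells. P4hb, the beta subunit, which also acts alone as a disulfide isomerase, was at 361 FPKM in control cells and 1026 FPKM in knockdown cells, 2.84-fold apart. Its level was 20.6 times that of the summed alpha subunits in control cells and 8.88 times in knockdown cells, so P4hb was the more abundant in both.

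**Figure D2:**
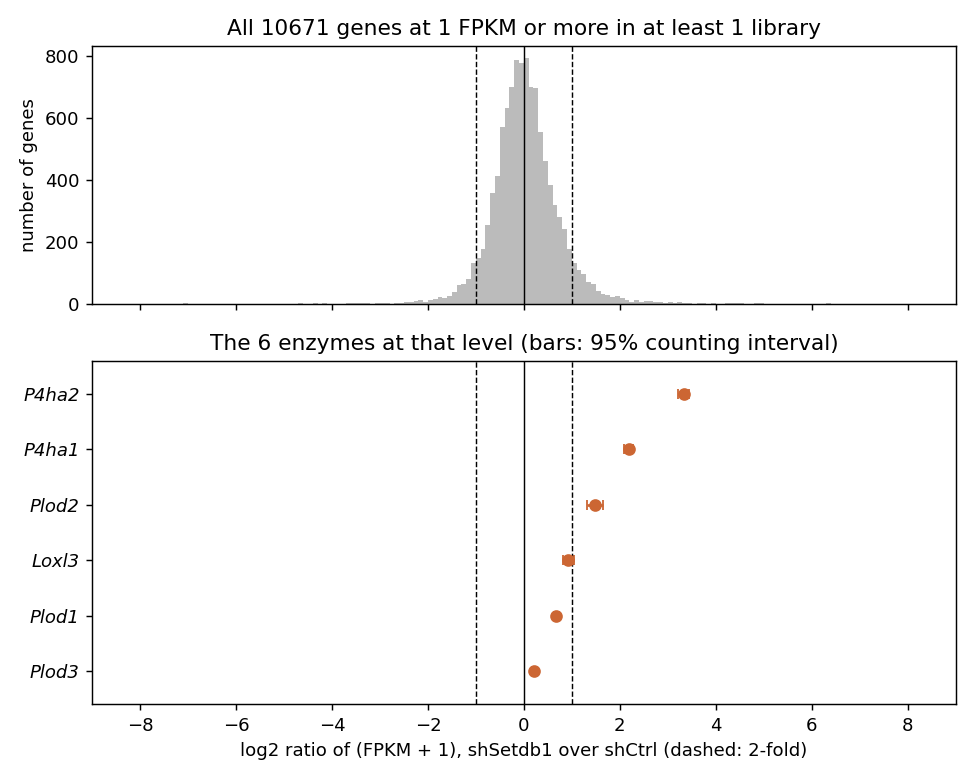
Top, number of genes by log2 ratio of (FPKM + 1), knockdown over control, for the 10671 genes that reached 1 FPKM in either library; bottom, the same ratio for the 6 enzymes at that level, with 95% counting intervals as bars. P4ha2 at 3.33 and P4ha1 at 2.18 lie in the upper tail, and Plod3 at 0.21 lies within the bulk of all genes.

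Among the lysyl hydroxylases, the gene with the lowest level in control cells had the highest ratio, and the most abundant gene had the lowest. Plod2 (ENSMUSG00000032374, chromosome 9, 92542223 to 92608428) encodes the hydroxylase of the telopeptides, the collagen ends where crosslinks form. It was at 2.01 FPKM (203 reads) in control cells and 7.43 FPKM (750 reads) in knockdown cells. The log2 ratio was 1.49, with a read ratio of 3.57 (3.06 to 4.19). A locus on the other strand, Gm38391, shares 346 exon bases with Plod2 and had 2 and 11 reads.

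Plod1 (ENSMUSG00000019055, chromosome 4, 147909753 to 147936767) encodes the hydroxylase of lysines within the helix. It was at 28.7 FPKM (3641 reads) in control cells and 46.5 FPKM (5896 reads) in knockdown cells. The log2 ratio of 0.68 was under the 2-fold threshold, and 14.1% of all genes had a higher one. The read ratio was 1.57 (1.503 to 1.63). Plod3 (ENSMUSG00000004846, chromosome 5, 136987019 to 136996648) encodes an enzyme that also adds galactose and glucose to hydroxylysine. It was at 94.97 FPKM (8039 reads) in control cells and 110.0 FPKM (9314 reads) in knockdown cells, with log2 and read ratios of 0.21 and 1.12 (1.09 to 1.15). The counting interval of this small difference does not include equal shares, but 35.2% of all genes had a higher ratio. Plod3 shares 529 of its exon bases (11.7%) with Znhit1 on the opposite strand, which had 1413 and 1769 reads, and whether reads were counted by strand is not given in the sources used here.

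Together the Plod genes were at 126 FPKM in control cells and 164 FPKM in knockdown cells, 1.30-fold apart. Plod3 held 75.5% of the sum in control cells and 67.1% in knockdown cells, Plod1 22.9% and 28.4%, and Plod2 1.60% and 4.53%. Plod3 was the most abundant lysyl hydroxylase in both libraries, at 47.3 times the level of Plod2 in control cells and 14.8 times in knockdown cells.

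Of the lysyl oxidases on the list, Loxl3 was the 1 gene with more than a few reads. Loxl3 (ENSMUSG00000000693, chromosome 6, 83034173 to 83052562) encodes a lysyl oxidase with scavenger receptor domains. It was at 9.44 FPKM (814 reads) in control cells and 18.8 FPKM (1621 reads) in knockdown cells. The log2 ratio of 0.92 lay just under the 2-fold threshold, and the read ratio was 1.93 (1.77 to 2.10). Loxl3 shares 535 exon bases (11.6% of its own) with Htra2 on the opposite strand, which was lower in knockdown cells, with 1601 reads in control cells against 1002. The part of reads from Htra2 in the Loxl3 value was not tested.

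Lox (ENSMUSG00000024529, chromosome 18, 52516069 to 52529867), the founding member of the family, had 0 reads in both libraries, which allows up to 0.0333 FPKM in each. Loxl1, which crosslinks elastin, had 5 reads in control cells and 3 in knockdown cells, a read ratio of 0.580 with an interval of 0.0901 to 2.98. Loxl2, which acts on basement membrane collagen, had 1 read in control cells and 5 in knockdown cells, a ratio of 4.84 with an interval of 0.541 to 229. Both intervals include 1, so a difference of Loxl1 or Loxl2 was not detectable at this depth.

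Loxl4 is a close relative of Loxl2 and Loxl3 and is not among the 10 enzymes. It was the most abundant lysyl oxidase gene of the control library and differed in the other direction from Loxl3. Loxl4 (ENSMUSG00000025185, chromosome 19, 42593982 to 42612813) was at 50.7 FPKM (3999 reads) in control cells and 18.6 FPKM (1470 reads) in knockdown cells. Its log2 ratio was -1.40 and its read ratio 0.356 (0.335 to 0.378). With Loxl4 counted, the summed level of the family was 60.2 FPKM in control cells and 37.5 FPKM in knockdown cells, while without it the sums were 9.53 and 18.9 FPKM. Loxl4 stood at 5.37 times the level of Loxl3 in control cells and 0.991 times in knockdown cells. Whether the summed level of lysyl oxidase RNA was higher or lower in knockdown cells thus turns on the counting of Loxl4.

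**Figure D3:**
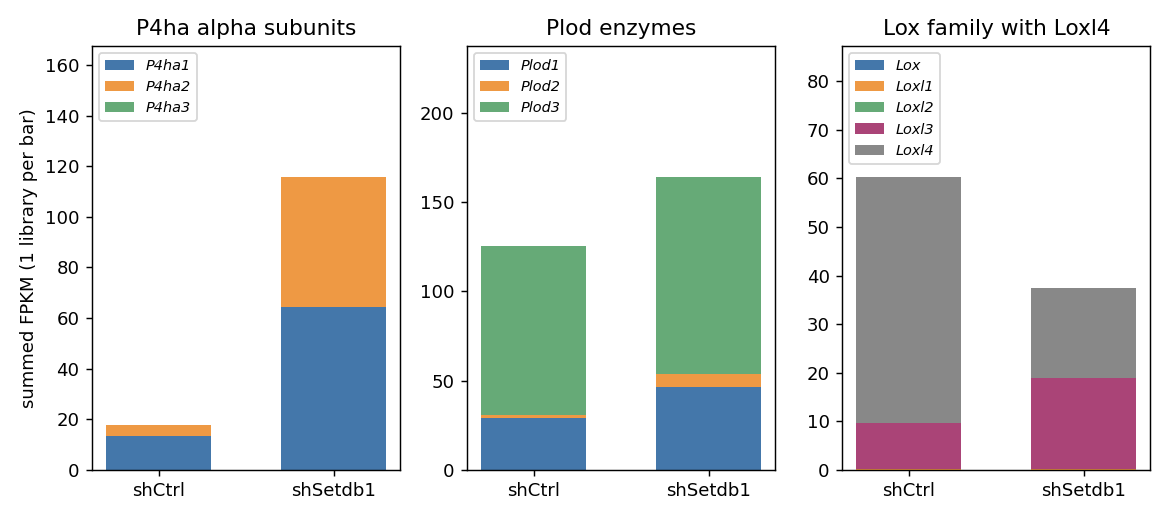
Summed FPKM of the P4ha alpha subunits, the Plod enzymes and the Lox family with Loxl4, in 1 library per bar, with 1 colour per gene and a separate linear axis for each family. The P4ha sum goes from 17.5 to 116 FPKM and the Plod sum from 126 to 164 FPKM, while the Lox sum goes from 60.2 to 37.5 FPKM.

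The other genes of the pathway were taken from lists made for their roles. Most genes named from them are the highest or the lowest of their list, and the others were named after their values were seen. Pairs of FPKM values below give the control library first, and 2-fold means a log2 ratio of (FPKM + 1) of 1 or more, or of -1 or less, which some genes with a 2-fold difference in FPKM do not reach. By this measure 6.81% of all genes were 2-fold higher and 4.85% were 2-fold lower, and 49.6% had a ratio above 0. Of 15 genes for other steps of collagen hydroxylation, glycosylation and folding, 12 reached 1 FPKM, 10 of them above 0 and 2 below, with a median log2 ratio of 0.24. Fkbp14, at 0.746 and 1.30 FPKM, is among those above 0 and entered only through the knockdown library, where it is high. P4hb, whose FPKM differed 2.84-fold, was the 1 gene past 2-fold higher, and Loxl4, with a log2 ratio of -1.40, the 1 gene past 2-fold lower. Serpinh1, the collagen chaperone of the endoplasmic reticulum, was at 333 FPKM in control cells and 249 FPKM in knockdown cells (log2 ratio -0.42). P3h1, a prolyl 3-hydroxylase of collagen, was at 10.6 and 10.7 FPKM (0.01).

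Of 10 genes for procollagen cleavage and lysyl oxidase activation, 4 reached 1 FPKM and 0 passed 2-fold on the log2(FPKM + 1) scale in either direction, with a median of 0.24. Adamts14, a protease of the amino propeptide, had the highest log2 ratio at 0.88, from 1.63 to 3.84 FPKM, with a read ratio of 2.28 (1.88 to 2.76). Pcolce, an enhancer of carboxyl propeptide cleavage, had the lowest at -0.28, from 403 to 333 FPKM. Bmp1, the protease that removes the carboxyl propeptide and activates Lox, had 1556 reads in both libraries.

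Genes of collagen and elastic fibres, the matrix that holds the substrates of the enzymes, were split in direction. Of 15 collagen and elastic fibre genes 8 reached 1 FPKM, 4 higher and 4 lower, with a median log2 ratio of -0.02. The chains of fibrillar collagen I were lower in knockdown cells, Col1a1 at 32.1 and 24.0 FPKM (-0.41) and Col1a2 at 140 and 94.1 FPKM (-0.56). The chains of basement membrane collagen IV were higher, Col4a1 at 28.7 and 48.1 FPKM (0.73) and Col4a2, the highest of the list, at 22.0 and 44.3 FPKM (0.98). Fbln5, an elastic fibre protein, was the lowest and the 1 gene past 2-fold on the log2(FPKM + 1) scale, from 10.7 to 1.11 FPKM (-2.47). Col3a1, a fibrillar collagen chain at a low level, was at 2.68 and 0.887 FPKM (-0.96), and did not reach it. Col3a1 entered the list counts only through the control library, where it is high. Set against these chains, the summed P4ha level was 0.126 times that of Col1a2 in control cells and 1.23 times in knockdown cells. Against Col4a2 it was 0.796 times in control cells and 2.61 times in knockdown cells.

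Other oxygenases that use 2-oxoglutarate and iron were also higher in part. Of 18 such genes 14 reached 1 FPKM, 11 with a log2 ratio above 0, 3 of them 2-fold higher and 0 2-fold lower, and the median was 0.36. Over all genes 49.6% were above 0, 6.81% were 2-fold higher and 4.85% were 2-fold lower. Egln1, the main HIF prolyl hydroxylase, had the highest log2 ratio at 2.06, from 27.7 to 119 FPKM. The histone demethylase Kdm4b (1.67) and Jmjd6, a lysyl hydroxylase of splicing factors (1.28), were the others past 2-fold on the log2(FPKM + 1) scale. The histone demethylase Kdm3a, at 2.85 and 6.60 FPKM (0.98), and the RNA demethylase Alkbh5, at 20.9 and 41.9 FPKM (0.97), were just under it. The lowest was Ogfod1, a ribosomal prolyl hydroxylase, at -0.48, from 7.17 to 4.87 FPKM.

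The hypoxia response list held 20 genes, of which 16 reached 1 FPKM, 12 were 2-fold higher and 1 was 2-fold lower, with a median log2 ratio of 1.48. Of all genes, 6.81% were 2-fold higher and 4.85% were 2-fold lower. Car9 and Ankrd37 reached 1 FPKM in knockdown cells only, and Stc2 in control cells only, so each entered through the library where it is high. Car9, which encodes carbonic anhydrase IX, was highest at 4.51, from 0.695 to 37.7 FPKM, and Stc2, a secreted glycoprotein, was lowest at -1.20, from 2.40 to 0.485 FPKM. Some of these genes were known to be high in knockdown cells when the list was made, so their direction is not independent evidence. The values of this list span -1.20 to 4.51, and all 6 expressed enzymes, at 0.21 to 3.33, lie in that wide span. The quartiles of all genes, -0.36 and 0.38, lie in it too, so the span does not tell the enzymes from other genes. A link between the enzymes and this list was not tested. Of the 6 HIF subunit and degradation genes 3 reached 1 FPKM and 0 passed 2-fold on the log2(FPKM + 1) scale, with a median of 0.40. Vhl, which marks HIF for degradation, was highest at 0.98, just under that threshold, from 16.5 to 33.5 FPKM. The HIF subunit gene Hif1a was lowest at -0.57, from 6.09 to 3.78 FPKM, while Epas1 and Hif3a had 0 reads.

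Genes that supply the cofactors of these enzymes were mostly close to 0. Of 8 genes for ascorbate, copper, iron and glucose uptake 7 reached 1 FPKM, 5 higher and 2 lower, with a median of 0.28. Atp7a, at 0.727 and 1.16 FPKM, is among the higher genes and entered only through the knockdown library. The 1 gene past 2-fold was the glucose transporter Slc2a1, which can carry oxidised ascorbate and is also on the hypoxia list, from 34.3 to 169 FPKM (log2 ratio 2.27). The lowest was the copper chaperone Atox1 at -0.37, from 96.9 to 74.9 FPKM. Of 12 genes of the TGF-beta pathway, an inducer of matrix genes, 10 reached 1 FPKM, 2 were 2-fold higher and 1 was 2-fold lower, with a median of 0.11. The shares over all genes were 6.81% higher and 4.85% lower. Tgfbi, at 0.637 and 1.33 FPKM, entered this list's median only through the knockdown library, where it is high. The ligand Tgfb1 was at 1.37, from 14.2 to 38.2 FPKM. Ctgf, a matricellular growth factor, was lowest at -1.12, from 21.2 to 9.22 FPKM.

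**Figure D4:**
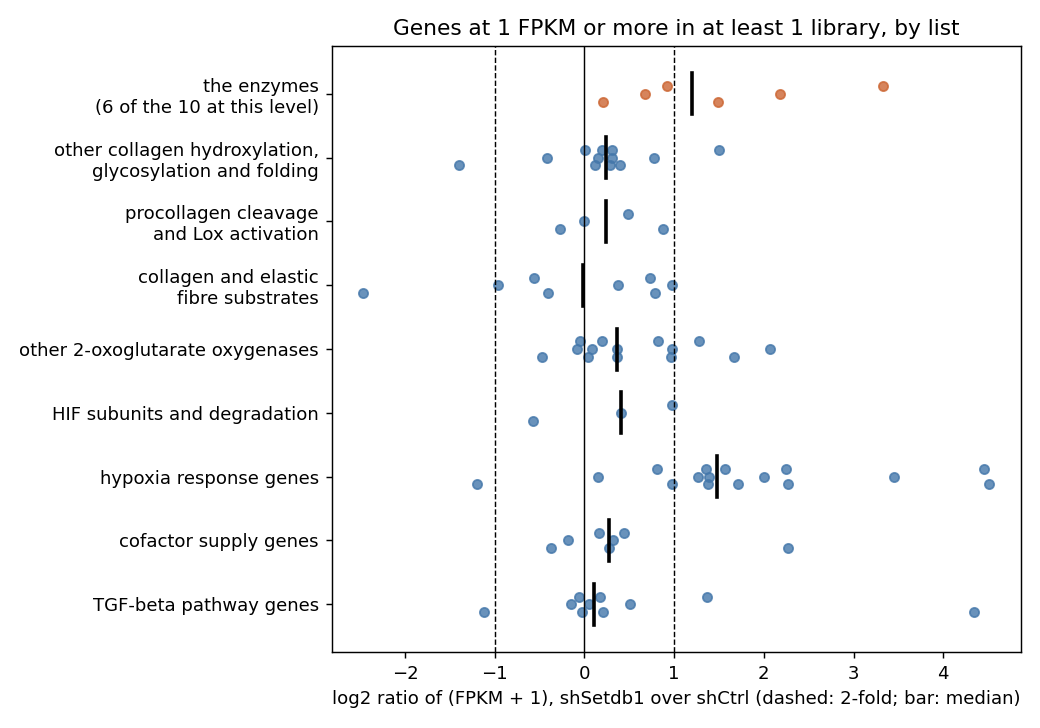
Log2 ratio of (FPKM + 1), knockdown over control, of each gene that reached 1 FPKM in either library, by list, with a black bar at the median of each list and dashed lines at 2-fold. The enzymes have a median of 1.20 and the hypoxia response genes 1.48, while the collagen and elastic fibre genes, labelled substrates, have -0.02.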

How the data were processed

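RNA-seq libraries of 1 knockdown and 1 control culture were compared. The authors deposited FPKM values per gene with gene lengths. Whole reads, within 0.01 of a read, were recovered for 100% of values above 0. The depth behind the FPKM was 18731117 reads in either library. CASAVA, HISAT2, featureCounts 1.5.0-p3 and GRCm38 are named without roles, per the submitters' processing notes. Strand and annotation release are not given in the sources used here. Of 54495 gene IDs in GENCODE M21, 53585 had the same start and end, as did 9 of the 10 members. Lox differed, and its position is the table's.

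Log2 ratios of (FPKM + 1) were computed, with genes that reached 1 FPKM in either library compared at a 2-fold threshold. No p-value was computed. Members and 12 lists (8 of pathway genes, 4 of cell type markers) were chosen with earlier results of these data known. The rule for named genes took the members, Setdb1 and the highest and lowest gene of each pathway list, of which 1 is not reported here. Other genes were named after their values were seen. Symbols were matched to the table, Ccn2 through its RefSeq synonym Ctgf. Alternatives were a pseudocount of 0.1, 3 other scalings, no filter or one at 5 FPKM, a 1.5-fold threshold and the mean. Loxl4 was added to its family after seeing the data. Protein sequences were not used here. Calculations, tested on simulated data, used scipy 1.17.1, numpy 2.4.6, matplotlib 3.10.9 and pandas 2.3.3 under Python 3.11.15.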

Additional observations from a re-analysis of the deposited data

How the results depend on the processing

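The count of members at least 2-fold higher stayed at 3 under the pseudocount of 0.1, the 3 other scalings, no filter and the filter at 5 FPKM. The share of all genes past it, 6.81% in the main setting, was 10.6% with that pseudocount and 6.16% to 6.84% under the scalings. It was 1.33% without a filter, where all 10 members count, and 7.63% at 5 FPKM. P4ha2 and Plod2 passed 5 FPKM in knockdown cells only, so their place in that count depends on the library where they are high. At the 1.5-fold threshold the count was 5, since Plod1 and Loxl3 also pass it, as do 16.9% of all genes. The count of members lower was 0 under each of these, at 2-fold or, for the last, at 1.5-fold. The share of all genes that were lower was 8.15% with the pseudocount of 0.1 and 4.83% to 5.66% under the scalings. It was 0.947% without a filter, 5.30% at 5 FPKM and 14.3% at the 1.5-fold threshold. The median log2 ratio of the members was 1.41 with the pseudocount of 0.1, which weighs less on low genes, 0.44 without a filter, since the added members have few or no reads, and 1.47 as a mean. It lay between 1.15 and 1.21 under the scalings and the 5 FPKM filter. Of 32 alternative values of single members 25 stayed within counting error, 7 moved and 0 reversed. Plod2 was at 1.83 and P4ha2 at 3.58 with the pseudocount of 0.1. Plod3, the smallest difference, was at 0.14 under upper-quartile scaling, which moved the median of all genes to -0.0621. Counting Loxl4 in its family took the share of Loxl3 from 99.0% to 15.7% in control cells and from 99.5% to 50.1% in knockdown cells. No paired analysis was possible because there was 1 library per group, and a library could not be left out for the same reason. Depth limits Loxl1 and Loxl2, with 5 reads or fewer in each library, and P4ha3 and Lox, with none.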

Other observations

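Genes close to the 6 expressed enzymes were examined after the values of the enzymes were seen. Within 250 kb of these enzymes lay 41 other genes that reached 1 FPKM in either library, of which 11 (26.8%) were 2-fold higher and 0 were 2-fold lower in knockdown cells; 6.81% of all genes were 2-fold higher. The share 2-fold higher was 25.9% of 27 genes within 100 kb, 20.6% of 63 within 500 kb and 15.4% of 117 within 1000 kb. Genes 2-fold lower numbered 0 within 100 kb, 2 within 500 kb and 5 within 1000 kb, and 4.85% of all genes were 2-fold lower. Neighbours share a region and are not independent, so no test was made. Around Loxl3, 5 of 12 were 2-fold higher: Dok1, 702 bases away, a signalling adaptor (log2 ratio 1.09), Wbp1 (1.49), Rtkn (1.19), Wdr54 (1.58) and 1700003E16Rik (1.09). Near P4ha2 these were Csf2, the cytokine GM-CSF, with 7 reads in control cells and 145 in knockdown cells (2.86), and the transporter Slc22a4 (1.04), 2 of 3 genes. Csf2, at 0.467 FPKM in control cells and 9.68 FPKM in knockdown cells, entered these counts only through the library where it is high. Near Plod1 the 2-fold higher genes were Nppb, a natriuretic peptide gene (1.77), Fbxo2 (1.25) and Fbxo44 (1.18), 3 of 13 genes. None of the 3 neighbours of P4ha1 and none of the 2 of Plod2 passed 2-fold.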
